A study of Mus musculus with 24 samples.

Results

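The comparison described here set mice that received duloxetine together with *R. flavefaciens* (combined treatment) against control mice, to see which transcripts of the medial prefrontal cortex (mPFC) differed when the drug and the bacterium were given side by side. It rests on 12 of the 24 mice of the series, 6 control and 6 combined, all of which the labels and the methods assign to their group, and on every gene of the deposited table, 15456 in all, of which 14974 had a mean of at least 10 normalized counts and were tested. All mice were BALB/c OlaHsd males in postnatal week 11, and 1 poly(A) RNA library per mouse was sequenced. Control mice received PBS according to the methods. Duloxetine was injected daily into the peritoneum, and *R. flavefaciens* was given by gavage, on each of the first 3 days according to the methods and 2 times per week after that. The remaining 12 mice, 6 with duloxetine and 6 with *R. flavefaciens* alone, entered the same model and lend it their estimate of the spread. Mice were housed in groups. The first number of a mouse's label is never shared between groups (1 to 3 in controls, 10 to 12 in the combined group), so whatever that number stands for cannot be told apart from the treatment.

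Duloxetine is an antidepressant that blocks the transporters taking serotonin and norepinephrine back into nerve endings. *R. flavefaciens* is an anaerobic bacterium of the gut that breaks down plant fibre. The mPFC is a cortical area that regulates mood and behaviour, and its pyramidal neurons carry receptors for both monoamines, among them the beta 1 adrenergic receptor, which raises cAMP in the cell. Neurons also depend on mitochondria, whose small circular genome encodes subunits of respiratory complexes I, III, IV and ATP synthase and is copied on both strands into long precursors that are cut into messenger, transfer and ribosomal RNAs.

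Values are normalized counts, which are gene counts that the authors divided by 1 size factor per mouse. Recovering the counted reads from them gave 13435517 to 14446451 reads per mouse in the control group (median 13591497) and 14128350 to 15607343 in the combined group (median 14621655). The combined libraries were thus deeper, by 1051202 reads on average (exact permutation test, two-sided, p = 0.00433; 0.00216 is the smallest value this design allows). Both groups carried the markers of male cortex, with 1 library standing apart. The transcripts of the glutamate transporter *Slc17a7* averaged 25879 normalized counts in control and 24206 in combined mice, those of the kinase *Camk2a* 51331 and 55488, and all 4 Y-linked genes looked at were present, whereas *Xist* and *Tsix* are not listed. One of the 4, *Eif2s3y*, had 96.3 normalized counts in control 2_1 and 273 to 349 in the other controls. Counts of DEGs without that mouse are given below. In the bulk tissue, fewer cells of a type and less RNA per cell cannot be told apart.

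The limma test across all genes found 15 differentially expressed genes (DEGs) at an adjusted p-value under 0.05, which is 0.10% of those tested. Of these, 8 (0.0534%) were higher and 7 (0.0467%) lower in the combined group. Among the higher ones were *Olfr729*, *Tcim*, *Arrdc2*, *F3*, the mitochondrial *mt-Te*, *Sat1*, *Cox8a* and *Zranb2*, and the lower ones were *Adrb1*, *Mthfd1l*, *Otud1*, *Zfp282*, *Ppp1r15b*, *Rusc2* and *Ppp2r5d*. Without adjustment, 2517 genes (16.8%) had p-values under 0.05, 1210 (8.08%) of them higher and 1307 (8.73%) lower. Counts of higher and lower members of a gene list below are at this unadjusted threshold, to be read against these shares, and for lists of abundant genes against those of the highest quintile by mean (above 1084 normalized counts), where 20.6% were lower and 4.94% higher. For 13 of the 15 DEGs the groups did not overlap, beside 132 genes (0.882%) with all 6 combined mice above every control and 174 (1.16%) with all 6 below. These DEGs were called from the same values, so that count adds nothing to the call. The balance between directions hung on the scaling. Quantile normalization gave 13 higher and 5 lower DEGs, rescaling to the upper quartile 18 and 5, and removal of a trend on transcript length 20 and 42. The count itself moved far more. DESeq2 on the recovered reads called 217 genes, 1.45%, with 111 (0.741%) higher and 106 (0.708%) lower, and 14 of the 15 limma DEGs were among them. That count was 63 without control mouse 2_1, a setting chosen after seeing the data, and 709 with the 2 groups alone. Leaving out combined mouse 12_4 alone raised the limma count to 154, and leaving out control mouse 2_1 or 3_1 or combined mouse 10_2 lowered it to 5.

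*Mthfd1l* (chr10:3973118-4167081, plus strand, GRCm38; positions of genes are those of the deposited table) makes the mitochondrial enzyme that turns one-carbon units into formate. It had 266 to 351 normalized counts in the control mice (median 322) and 218 to 245 in the combined mice (median 230). The groups did not overlap, and the highest combined mouse (10_2) lay below the lowest control (2_2). The log2 fold change was -0.45 ± 0.064 (SE, as for all log2 fold changes below; limma adjusted p = 0.00155). *Adrb1*, the beta 1 adrenergic receptor (chr19:56722372-56724862, plus strand; both ends differ in GENCODE vM21), had 592 to 748 normalized counts in controls (median 642) and 411 to 583 in combined mice (median 441). In 4 of the combined mice it lay between 411 and 454, while 12_3 and 12_4 had 555 and 583, just under the controls. The log2 fold change was -0.47 ± 0.078 (limma adjusted p = 0.00656), and it stayed past the threshold without any single mouse (adjusted p from 0.00123 to 0.0377). *Otud1* (chr2:19657752-19660583, plus strand), which encodes a deubiquitinase, fell by 0.40 on the log2 scale (standard error 0.073, limma adjusted p = 0.0188), from 573 to 727 normalized counts in controls to 416 to 571 in combined mice. The call of *Otud1* was lost in 5 of 24 fits without a single mouse.

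Of the remaining lower DEGs, 2 encode subunits of protein phosphatases. *Ppp1r15b* (chr1:133131143-133139783, plus strand), which directs protein phosphatase 1 to the initiation factor eIF2 alpha, had 909 to 1060 normalized counts in controls (median 947) and 799 to 836 (median 825) in combined mice. The 6 combined mice were close together, and each lay below every control. Its call was lost in 13 of 24 fits without a single mouse. *Ppp2r5d* (chr17:46682991-46705002, minus strand; 1 end differs in vM21), a regulatory subunit of protein phosphatase 2A, had 1201 to 1249 normalized counts in controls and 975 to 1125 in combined mice, a difference of -0.20 ± 0.04 on the log2 scale (limma adjusted p = 0.0438). It overlaps *Mea1* and *Gm26904* on the opposite strand, as *Ppp1r15b* does *Gm26616*, and as the library kit named in the methods does not mark strand, reads of such genes cannot be told apart where they overlap. *Rusc2* (chr4:43381979-43427088, plus strand), a gene of vesicle transport that overlaps *Fam166b* in the same way, had a log2 fold change of -0.23 ± 0.046, and the zinc finger gene *Zfp282* (chr6:47877204-47908485, plus strand) one of -0.29 ± 0.053. Calls of the DEGs nearest the threshold were fragile, and *Ppp2r5d* and *Rusc2* each lost theirs in 16 of 24 fits without a single mouse. *Zfp282* lost its call in 5 of these fits.

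*Olfr729* (chr14:50144731-50152910, minus strand) had the largest log2 fold change of the higher DEGs, 1.56 ± 0.23 (limma adjusted p = 0.00155), with 63.7 to 95.7 normalized counts in controls (median 87.2) and 161 to 468 in combined mice (median 243). It belongs to the olfactory receptor family, where similar copies can share reads, and mouse 12_2 alone had 468, while the other 5 combined mice had 161 to 280. *Tcim* (chr8:24437180-24438984, minus strand), a regulator of transcription and growth, had few counts, with 2.08 to 11.6 normalized counts in controls and 13.2 to 21.4 in combined mice (log2 fold change 1.54 ± 0.30). DESeq2 gave it no adjusted p-value, and an antisense gene overlaps it. Its limma call was lost in 7 of 24 fits without a single mouse. *F3* (chr3:121723537-121735048, plus strand), which makes tissue factor, the starter of blood clotting that astrocytes also make, had 217 to 333 normalized counts in controls (median 268) and 360 to 543 in combined mice (median 416). Each combined mouse lay above each control, and the log2 fold change was 0.71 ± 0.12 (limma adjusted p = 0.00656).

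*Sat1* (chrX:155213132-155216449, minus strand), the enzyme that acetylates spermidine and spermine for their breakdown, had 299.8 to 381 normalized counts in controls and 424 to 550 in combined mice, a difference of 0.43 ± 0.088 on the log2 scale (limma adjusted p = 0.0438). With a single mouse left out, its call was lost in 14 of 24 fits, and that of *Arrdc2* in 13. *Arrdc2* (chr8:70835129-70839720, minus strand), an arrestin domain gene, and *Zranb2* (chr3:157534160-157548410, plus strand), a splicing factor gene, passed the test although their groups overlapped. *Arrdc2* ranged from 62.5 to 89.4 normalized counts in controls and from 86.4 (mouse 12_4) to 166 (mouse 12_2) in combined mice. For *Zranb2* the ranges were 1563 to 1827 and 1788 to 2123, and the change was small, 0.24 on the log2 scale (standard error 0.043). The call of *Zranb2* was lost in 5 of 24 fits without a single mouse.

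**Figure D1:**
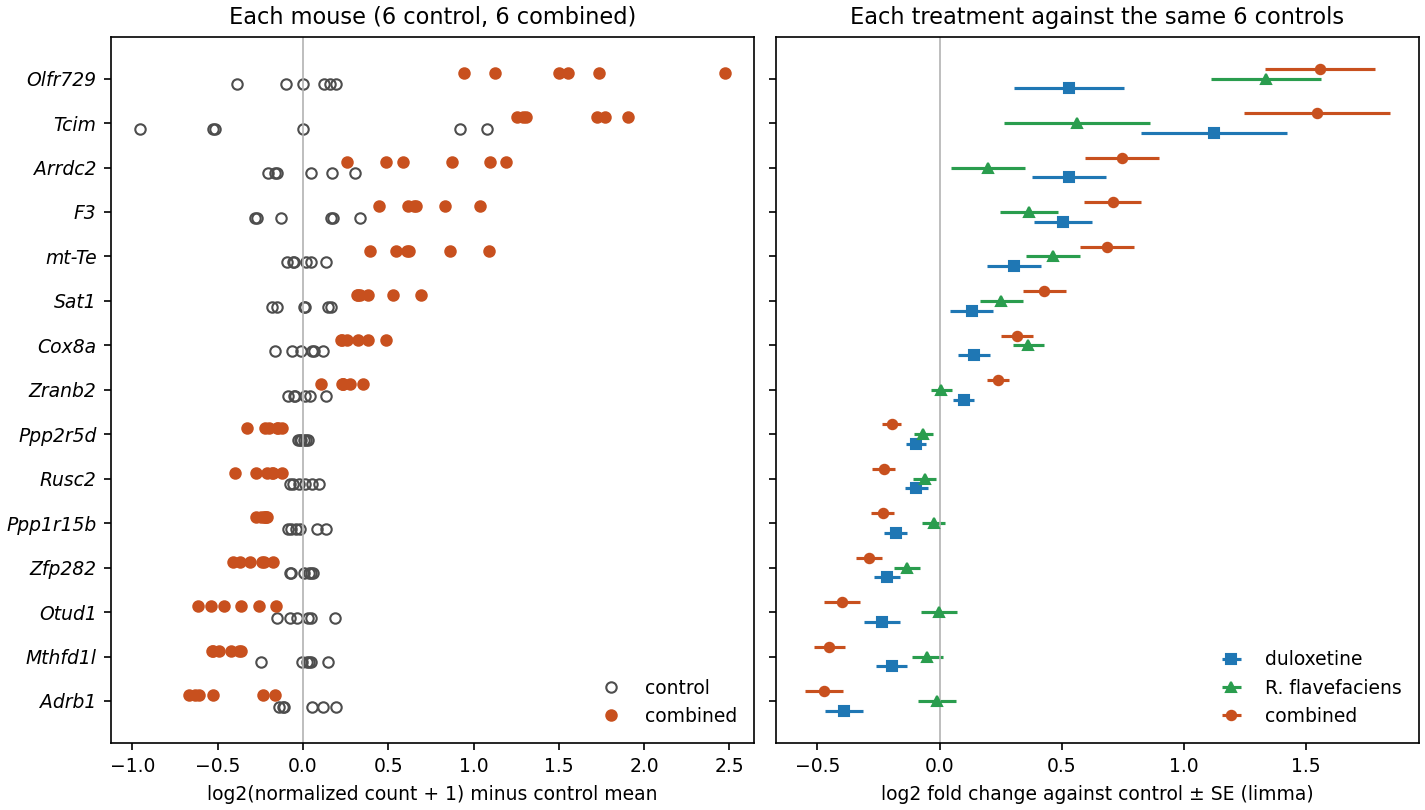
Left, log2(normalized count + 1) of the 15 DEGs in each of 6 control mice (open circles) and 6 combined mice (filled circles), minus the control mean of the gene; groups are apart for all DEGs except Zranb2 and Arrdc2. Right, limma log2 fold change ± standard error of duloxetine (squares), R. flavefaciens (triangles) and combined treatment (circles) against the same 6 controls.

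The comparisons of each single treatment with control used the same 6 control mice, so their values are only set side by side. Duloxetine alone had no DEGs (0.00%), with 573 genes (3.83%) at p under 0.05 before adjustment, and *R. flavefaciens* alone 4 DEGs (0.0267%) with 2939 genes (19.6%). These counts are of limma alone, as DESeq2 was run here only for the combination against control, where it called 217 genes. The study, which used DESeq2, reported more DEGs for the bacterium alone than for the combination, so the treatments are not ranked by these counts. *Adrb1* had a log2 fold change of -0.39 ± 0.078 under duloxetine alone, -0.01 ± 0.078 under *R. flavefaciens* alone and -0.47 under both. For *Cox8a* the values were 0.14, 0.36 and 0.32, each with a standard error of 0.065. *Olfr729* had 0.53 with duloxetine, 1.33 with *R. flavefaciens* and 1.56 with both. *Tcim*, conversely, had 1.12 with duloxetine and 0.56 with the bacterium. For *Mthfd1l* the single treatments gave -0.20 and -0.05, against -0.45 for the combination. Set directly against *R. flavefaciens* alone, 334 genes (2.23%) passed in the combined mice (2944, or 19.7%, before adjustment), and 5 of the 15 DEGs were among them, namely *Mthfd1l* (-0.40, limma adjusted p = 0.0062), *Adrb1* (-0.46, limma adjusted p = 0.007), *Zranb2*, *Otud1* and *Ppp1r15b*. Against duloxetine alone no gene passed (0.00%), while 883 (5.90%) had p under 0.05 before adjustment. The interaction, which asks whether the combination differs from the sum of both single effects, also had 0 genes past the threshold (0.00%) and 1128 (7.53%) before adjustment. For *Mthfd1l* it was -0.21 ± 0.09 (limma unadjusted p = 0.0302, adjusted p = 0.639) and for *Zranb2* 0.13 ± 0.061 (limma unadjusted p = 0.0391, adjusted p = 0.643). These misses do not show that the combination acts as the sum of its parts.

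Some promoter sequence of 3 lower DEGs and 2 immediate early genes, picked for holding a match, is shown because cAMP signalling, downstream of *Adrb1*, acts on gene expression through short motifs. RefSeq (GRCm38.p6) gave a promoter for 12 of the 15 DEGs, from 250 bases before to 50 after the start. Capitals mark matches, on either strand, to the short form of the cAMP response element, TGACG, or the E-box CACGTG, which may overlap. The stretches are the last 100 bases before the start, on the gene's own strand, and the immediate early genes *Nr4a1* and *Npas4* are described further on. For *Npas4* the window was set to hold its matches, from 179 to 80 bases before the start. Of the lower DEGs not shown, *Zfp282* held the short form 1 time, *Rusc2* and *Ppp2r5d* held none of the motifs, and no promoter was found for *Ppp1r15b*. In order they lie at chr19:56722017-56722116 (plus strand), chr10:3972975-3973074 (plus), chr2:19657631-19657730 (plus), chr15:101266746-101266845 (plus) and chr19:4990051-4990150 (minus).
Adrb1: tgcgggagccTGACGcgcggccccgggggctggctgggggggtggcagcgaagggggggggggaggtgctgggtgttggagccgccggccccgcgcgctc
Mthfd1l: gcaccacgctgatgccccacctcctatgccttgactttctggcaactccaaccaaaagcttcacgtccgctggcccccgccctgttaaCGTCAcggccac
Otud1: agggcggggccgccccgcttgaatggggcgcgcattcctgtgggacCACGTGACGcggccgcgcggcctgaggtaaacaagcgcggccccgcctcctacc
Nr4a1: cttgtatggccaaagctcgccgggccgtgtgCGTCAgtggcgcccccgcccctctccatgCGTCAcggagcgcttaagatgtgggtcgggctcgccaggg
Npas4: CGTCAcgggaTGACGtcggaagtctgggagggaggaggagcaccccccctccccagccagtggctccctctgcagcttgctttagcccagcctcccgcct
The short form was in 5 of the 12 DEG promoters (41.7%), in 12 of the 20 found for immediate early genes (60%) and in 31.1% of the 11123 promoters of tested genes. The whole element TGACGTCA was in 0 of the 12, in 2 of the 20 (10%) and in 3.31%. An E-box was in 1 of the 12, in 5 of the 20 (25%), in 5 of the 16 promoters of circadian clock genes (31.2%) and in 10% of tested genes. One spelling of the serum response element was found in 0 of the 12 and 0 of the 20, and in 0.027% of tested genes. The heat shock element GAANNTTC was in 0 of the 12, in 2 of the 20 and in 5.62% of tested genes. A match is a description of these letters in this window, and says nothing about binding.

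The 13 messenger RNAs of the mitochondrial genome all had positive log2 fold changes, from 0.28 for *mt-Co1* to 0.47 for *mt-Nd6*, all 13 higher at the unadjusted threshold, beside 8.08% of genes tested. Their median was 0.36, beside 0.0007 for all genes. None passed the limma threshold (0 of 13), while DESeq2 called 12 higher (0.741% of all genes). The complex I subunit *mt-Nd5* had 36028 to 39890 normalized counts in controls (median 38320) and 40873 to 60500 in combined mice (median 47284, log2 fold change 0.37 ± 0.078, limma adjusted p = 0.0519). Here every combined mouse lay above every control, and the same held for *mt-Nd6*, *mt-Nd3* and *mt-Nd4l*, although *mt-Nd5* and *mt-Nd6* overlap on opposite strands. Under quantile normalization the median shrank to 0.14.

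Together, genes of the mitochondrial genome took 4.29% ± 0.19 (SD, n = 6 mice) of recovered reads in controls and 5.52% ± 0.78 (SD, n = 6) in the combined group. Controls ranged from 4.04% to 4.61%, and combined mice from 4.57% in 12_4 to 6.62% in 12_2. The groups overlapped through 12_4 only. Side by side, the median of the 13 messenger RNAs was 0.25 under duloxetine and 0.14 under *R. flavefaciens*, against the same controls.

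**Figure D2:**
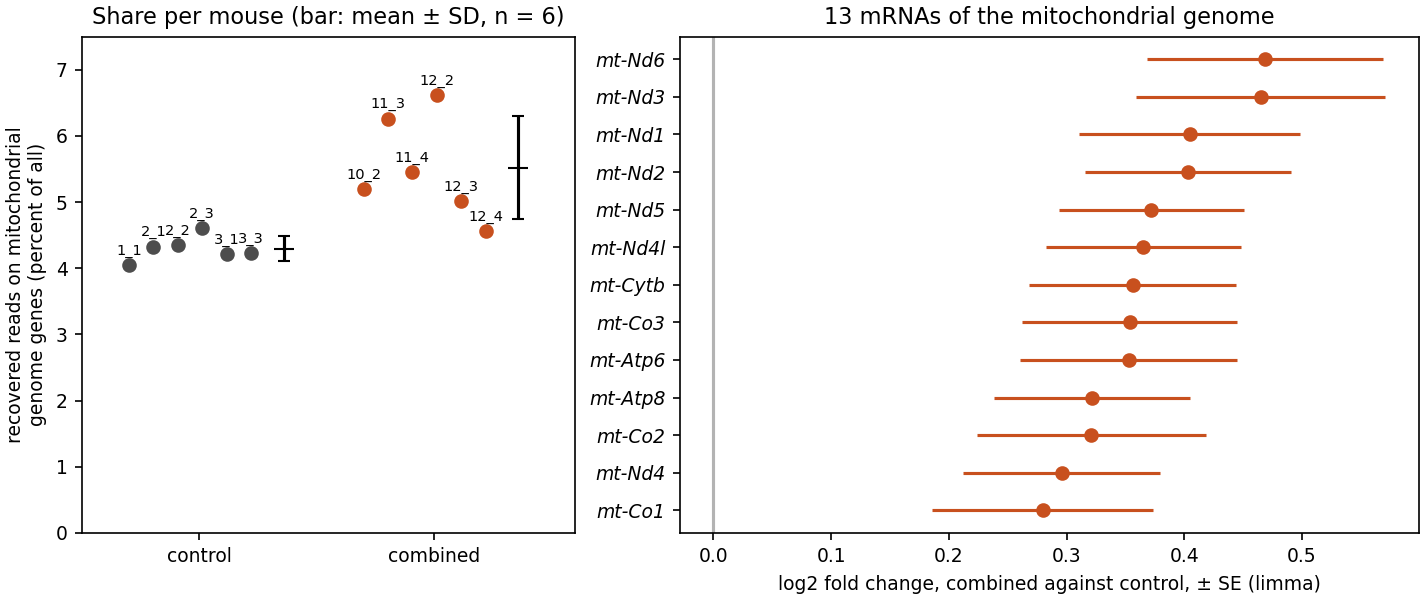
Left, share of recovered reads on genes of the mitochondrial genome in each mouse, with the mean and SD of 6 mice; combined mice range from 4.57% to 6.62% and controls from 4.04% to 4.61%. Right, log2 fold change ± standard error of the 13 mitochondrial messenger RNAs, all above 0.

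Among the 16 transfer and 2 ribosomal RNAs of that genome that were tested, 11 were higher and none lower, with a median of 0.35, or 0.170 after the length correction (most of these RNAs are very short). The DEG *mt-Te*, the transfer RNA for glutamate, is shown because it was the only mitochondrial gene past the limma threshold. It lies at chrMT:14071-14139 on the minus strand of GRCm38, between *mt-Nd6* and *mt-Cytb*, and its transcript sequence in GENCODE, on its own strand, is the following.
mt-Te: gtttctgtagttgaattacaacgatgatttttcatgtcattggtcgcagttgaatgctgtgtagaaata
It had 429 to 504 normalized counts in controls (median 454) and 602 to 977 in combined mice (median 703), without overlap. The log2 fold change was 0.69 ± 0.11 (limma adjusted p = 0.00605), or 0.44 after the length correction, still past the threshold. Transfer RNA genes annotated to the minus strand had a median of 0.54 (7 of 8 higher), and those of the plus strand 0.33 (3 of 8 higher). The strands overlapped, with 0.20 (*mt-Tq*) to 0.69 (*mt-Ta*) on the minus strand and -0.16 (*mt-Ti*) to 0.65 (*mt-Tr*) on the plus strand. As the kit does not mark strand, reads of precursors from the opposite strand cannot be told apart from these, and the plus-strand transfer RNAs had lower counts (means of 11.4 to 150 against 33.8 to 611). In these poly(A) libraries, mature transfer RNAs, *mt-Te* included, cannot be told apart from longer precursors of the same strand either.

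In the model of all mice, lists of nuclear genes of oxidative phosphorylation had smaller medians than the mitochondrial messenger RNAs (0.36, or 0.14 after quantile normalization). Single genes overlapped, as *Cox8a* (0.32) lay above *mt-Co1* (0.28). For complex IV, all 12 nuclear subunits had positive log2 fold changes with a median of 0.14, and 7 were higher at the unadjusted threshold. *Cox8a* (chr19:7215158-7217616, minus strand; 1 end differs in vM21), the only one past the threshold, had 2626 to 3193 normalized counts in controls (median 2994) and 3447 to 4124 in combined mice (median 3611, log2 fold change 0.32 ± 0.065, limma adjusted p = 0.0438). Its call was lost in 15 of 24 fits without a single mouse, and after the length correction (0.18, limma adjusted p = 0.0693). Further members were *Cox7c* (0.22) and *Cox6c* (0.23). Complex I subunits had a median of 0.08, with 8 of 36 higher and 1 lower, complex III 0.07 with 2 of 10 higher, and ATP synthase 0.06 with 4 of 17 higher and 1 lower. After a trend on transcript length was removed, these medians turned to -0.00, -0.04 and -0.02, while that of complex IV stayed positive at 0.05. Complex II (4 genes, median -0.02), complex I assembly factors (14 genes, 0.01, of the other sign after quantile normalization or the length correction) and enzymes of the tricarboxylic acid cycle (18 genes, -0.03, of the other sign after quantile normalization) lay near 0. Mitochondrial ribosomal proteins had a median of 0.02, or -0.03 after the length correction, with 6 of 77 higher and none lower, and among them *Mrpl48* had 554 to 649 normalized counts in controls and 666 to 739 in combined mice (log2 fold change 0.23, limma adjusted p = 0.0574).

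Cytoplasmic ribosomal proteins, the building blocks of the translating ribosome, had positive values in 81 of 82 genes (background 50.2%), with a median of 0.13, or 0.0576 after the length correction. Of them 28 were higher and 1 lower. None passed the adjusted limma threshold, and DESeq2 called 2 of the 82 higher, beside 0.741% of all genes tested. The score of the list, the mean over its genes of log2(value + 1) minus their mean over the 12 mice, was highest in 12_2 (0.253) and 11_3 (0.145), the mice with the highest blood scores (1.21 and 1.30) and, within the combined group, the highest astrocyte and endothelial scores, while 12_3 (-0.0518) and 12_4 (-0.0754) lay within the control range of -0.115 to -0.011. The part of these libraries and markers in the list's values was not tested. *Rpl36a*, with the smallest limma p-value of the list, had 427 to 506 normalized counts in controls and 512 to 684 in combined mice (0.33 ± 0.089). Many of these genes have processed copies elsewhere in the genome, which can share reads. Under *R. flavefaciens* alone the median of the list was 0.22 and under duloxetine 0.08, against the same control mice. Proteasome subunits had a median of -0.02, or 0.01 after upper-quartile rescaling, with 2 of 37 higher and 5 lower.

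Immediate early genes, which neurons switch on within minutes of activity, had the most negative median of the lists described, -0.35. Of 25 tested, 22 had negative log2 fold changes and 14 were lower at the unadjusted threshold, beside 8.73% of all genes. None passed the adjusted limma threshold, and DESeq2 called 1 of the 25 lower, beside 0.708% of all genes tested. *Npas4*, a transcription factor of activity-dependent inhibition, had 161 to 281 normalized counts in controls (median 210) and 63.7 to 191 in combined mice (median 101), a difference of -1.06 ± 0.27 on the log2 scale (limma adjusted p = 0.0849). Mouse 12_4, with 191, lay within the control range, while the other 5 had 63.7 to 114 and were below all controls. Control and combined means were 6187 and 4131 normalized counts for *Egr1* (-0.65 ± 0.18), 1693 and 1110 for *Nr4a1* (-0.60 ± 0.18) and 340 and 200.3 for *Egr2* (-0.90 ± 0.29). *Fos* had -0.58 and *Junb* -0.48, whereas *Gadd45b* (0.21), *Maff* (0.23) and *Klf4* (0.10) lay on the other side of 0. The score of the list, the mean over its genes of log2(value + 1) minus their mean over the 12 mice, was -0.632 in 10_2, -0.451 in 11_3 and -0.214 in 11_4, and 0.320 in 12_4, higher than in 4 of 6 controls. Side by side, the median was -0.26 under duloxetine and 0.08 under *R. flavefaciens*.

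Circadian clock genes had a median of -0.16 (-0.104 after quantile normalization), with 9 of 18 lower and none higher. *Cry2*, a repressor of the clock, had 2160 to 2483 normalized counts in controls and 1965 to 2375 in combined mice (-0.18 ± 0.048, limma adjusted p = 0.0939). The output factors *Tef* (-0.17) and *Dbp* (-0.29), the repressor *Per2* (-0.38) and the nuclear receptor *Nr1d2* (-0.20) were also negative, whereas the activators *Clock*, *Npas2* and *Arntl* had -0.09 ± 0.087, 0.02 ± 0.067 and 0.09 ± 0.075. The hour at which each mouse was killed was not used here. *Per1* belongs to this list, to the immediate early genes and to the targets of the glucocorticoid receptor.

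Targets of the glucocorticoid receptor lay on both sides of 0. *Ddit4* had 307 to 467 normalized counts in controls (median 335) and 432 to 686 in combined mice (median 535), a difference of 0.60 ± 0.14 on the log2 scale (limma adjusted p = 0.072, DESeq2 adjusted p = 0.013). *Tsc22d3* (0.40) and *Sgk1* (0.67) were on the same side and *Per1* (-0.24) on the other. Of the list of 17, 3 were higher and 1 lower, and log2 fold changes ran from -0.45 to 0.67. The median of the list was 0.05, from 0.0343 without 12_4 to 0.163 without 11_3. Genes of the integrated stress response, to which *Ddit4* also belongs, had 2 of 18 higher and 3 lower and a median of 0.01, or -0.03 after the length correction. Chaperones had a median of -0.11 (-0.0732 after quantile normalization), with 4 of 24 lower. Among them was *Hspa5*, the chaperone of the endoplasmic reticulum (-0.32 ± 0.12). It had 4442 to 6196 normalized counts in controls and 3152 to 5069 in combined mice.

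Monoamine receptors were mostly below 0. Of 8 adrenergic receptors, 6 had negative log2 fold changes (median -0.15), and *Adra1d*, an alpha 1 receptor, had -0.39 ± 0.16 (limma adjusted p = 0.23) next to *Adrb1*, the only one past the threshold. *Adrb3*, a beta receptor with low counts, had 0.07 ± 0.20, within its error. Among 11 serotonin receptors 9 were negative (median -0.15), and 4 were lower at the unadjusted threshold, *Htr3a* (-0.29), *Htr2c* (-0.33), *Htr1b* (-0.29) and *Htr5b* (-0.59), while *Htr2a*, the abundant cortical 2A receptor, had -0.03 ± 0.17. The 3 dopamine receptors tested had a median of -0.00. The 2 transporters that duloxetine blocks, *Slc6a2* and *Slc6a4*, are made in the brainstem and are not among the genes listed for the mPFC. Monoamine enzymes and the low-affinity transporter *Slc29a4* (0.26) had a median of 0.04, or -0.03 after quantile normalization. Genes of protein kinase A and cAMP signalling, which act downstream of *Adrb1*, had 9 of 32 lower and none higher. Their median was -0.06, or -0.0183 after quantile normalization. Of the 32, 18 belong to the highest quintile by mean, and 4 of these were lower, beside 20.6% of all genes of that quintile. *Adcy3*, an adenylyl cyclase, had 813 to 970 normalized counts in controls and 609 to 828 in combined mice (-0.29 ± 0.075, limma adjusted p = 0.0871), and *Prkar2a*, a regulatory subunit of the kinase, -0.21.

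Of the NMDA receptor subunits, which form one class of glutamate receptor, all but *Grin2c* (0.16 ± 0.098) had negative values, with 4 of 6 lower and a median of -0.15. The score of the list lay below every control in 4 combined mice, while 12_3 (0.0192) and 12_4 (0.0198) were within the control range of 0.004 to 0.124. These 2 mice also had the lowest astrocyte and endothelial scores of the combined group, and the part of that in the result was not tested. *Grin1*, the obligatory subunit, had 4887 to 5191 normalized counts in controls and 4149 to 4824 in combined mice, apart from each other but small in change (-0.15 ± 0.048, limma adjusted p = 0.133; -0.0916 after quantile normalization). *Grin2b* had -0.28 ± 0.11 and *Grin2a* -0.25 ± 0.14. The AMPA receptor list had a median of -0.01 (0.02 after quantile normalization or upper-quartile rescaling), in which *Gria1* had -0.14 ± 0.052 (limma adjusted p = 0.20; -0.0691 after quantile normalization). *Gria2* had -0.01 ± 0.045, and was of the other sign after quantile normalization, upper-quartile rescaling or the length correction. Kainate and delta receptors (median -0.08, or -0.0513 without mouse 12_2) had 2 of 9 lower. Metabotropic receptors and their partners had 3 of 10 lower, with *Homer1* at -0.48. Their median was -0.06, or 0.0012 without mouse 11_3 and -0.132 without 12_4. GABA-A receptor subunits had 1 of 13 lower and 1 higher. The GABA-A median was -0.03, or 0.01 after upper-quartile rescaling, -0.0791 without 10_2 and -0.0025 without 11_4.

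Adhesion molecules of neurons were below 0 in most members. Clustered protocadherins, whose many isoforms label single neurons, had 44 of 54 negative values, a median of -0.14 and 9 lower, none higher. Members of the alpha cluster, and likewise of the gamma cluster, share their last exons, so that their counted reads are not independent. *Pcdhga12* had 156 to 204 normalized counts in controls and 118 to 181 in combined mice (-0.37 ± 0.12). Classical cadherins and other protocadherins had 10 of 39 lower and none higher. *Pcdh19* had the smallest limma p-value of this list (-0.33, limma adjusted p = 0.0605, DESeq2 adjusted p = 0.017). Postsynaptic scaffolds (median -0.06), synaptic vesicle genes (-0.06), potassium channels (-0.06), with *Kcnk12* at -0.40, and sodium, calcium and HCN channels (-0.08) had 4 of 28, 7 of 42, 8 of 73 and 4 of 37 members lower. After upper-quartile rescaling these medians were -0.0321, -0.0283, -0.0297 and -0.0523. The highest quintile by mean, with 20.6% of its genes lower, held 19 scaffold genes (2 lower), 30 vesicle genes (7), 28 potassium channel genes (4) and 22 of the last list (4).

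Among motor and trafficking genes, DESeq2 called 1 of 52 motor genes and 4 of 45 adaptor and coat genes, all lower, beside 0.708% of all genes tested. *Dctn1*, the large dynactin subunit, had 6163 to 6807 normalized counts in controls and 5318 to 6249 in combined mice (-0.18, DESeq2 adjusted p = 0.00311, limma adjusted p = 0.0595), and overlaps the antisense gene *Gm15624*. *Dync1h1*, the heavy chain of dynein, had -0.25 (limma adjusted p = 0.123). Over all 52 motor genes 9 were lower and 3 higher, with a median of -0.02, or 0.02 after upper-quartile rescaling. The highest quintile by mean, with 20.6% lower over all genes, held 26 motor genes (7 lower) and 26 adaptor and coat genes (10 lower). Adaptor complexes and Golgi coats had 11 of 45 lower and 2 higher. Their median was -0.07, or -0.034 after quantile normalization and -0.0425 without combined mouse 12_2. Among them *Ap3b2* had 2182 to 2500 normalized counts in controls and 1960 to 2185 in combined mice (-0.16, DESeq2 adjusted p = 0.0185). *Uso1* had -0.09 (limma adjusted p = 0.337). In the CRMP family, which shapes axons through microtubules, all 5 values were negative. *Dpysl2* had 4495 to 5110 normalized counts in controls (median 4737) and 3803 to 4315 in combined mice (median 4088), groups that did not overlap (-0.24 ± 0.051, limma adjusted p = 0.0519). *Ube2ql1* had -0.22 and *C2cd2l* -0.20, and on the higher side the RNA-binding *Tial1* had 0.24 (DESeq2 adjusted p = 0.00389).

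Remaining lists held single members of note. Of 24 folate and one-carbon genes 3 were higher and 3 lower, and *Mthfd1l* was the only one past the adjusted threshold, while *Mtrr* had -0.22. *Bdnf* itself had -0.22 ± 0.14, and its list a median of -0.10, with the prohormone convertase *Pcsk1* at -0.39 (limma adjusted p = 0.174). Among interneuron peptides *Npy* had 589.8 to 728 normalized counts in controls and 681 to 1051 in combined mice (0.40 ± 0.094, limma adjusted p = 0.0624, DESeq2 adjusted p = 0.00763), *Pvalb* had 0.36, and *Reln* -0.32. Interferon and MHC class I genes had 3 of 24 higher, led by the low-count *Trim30a* (0.60), with a median of 0.08 (0.0205 after the length correction, 0.053 without 12_2), and cholesterol genes a median of 0.05 (0.0223 to 0.0796 under other settings), with *Ebp* at -0.20. *Prkacb*, a catalytic subunit of protein kinase A, had -0.13 ± 0.056.

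**Figure D3:**
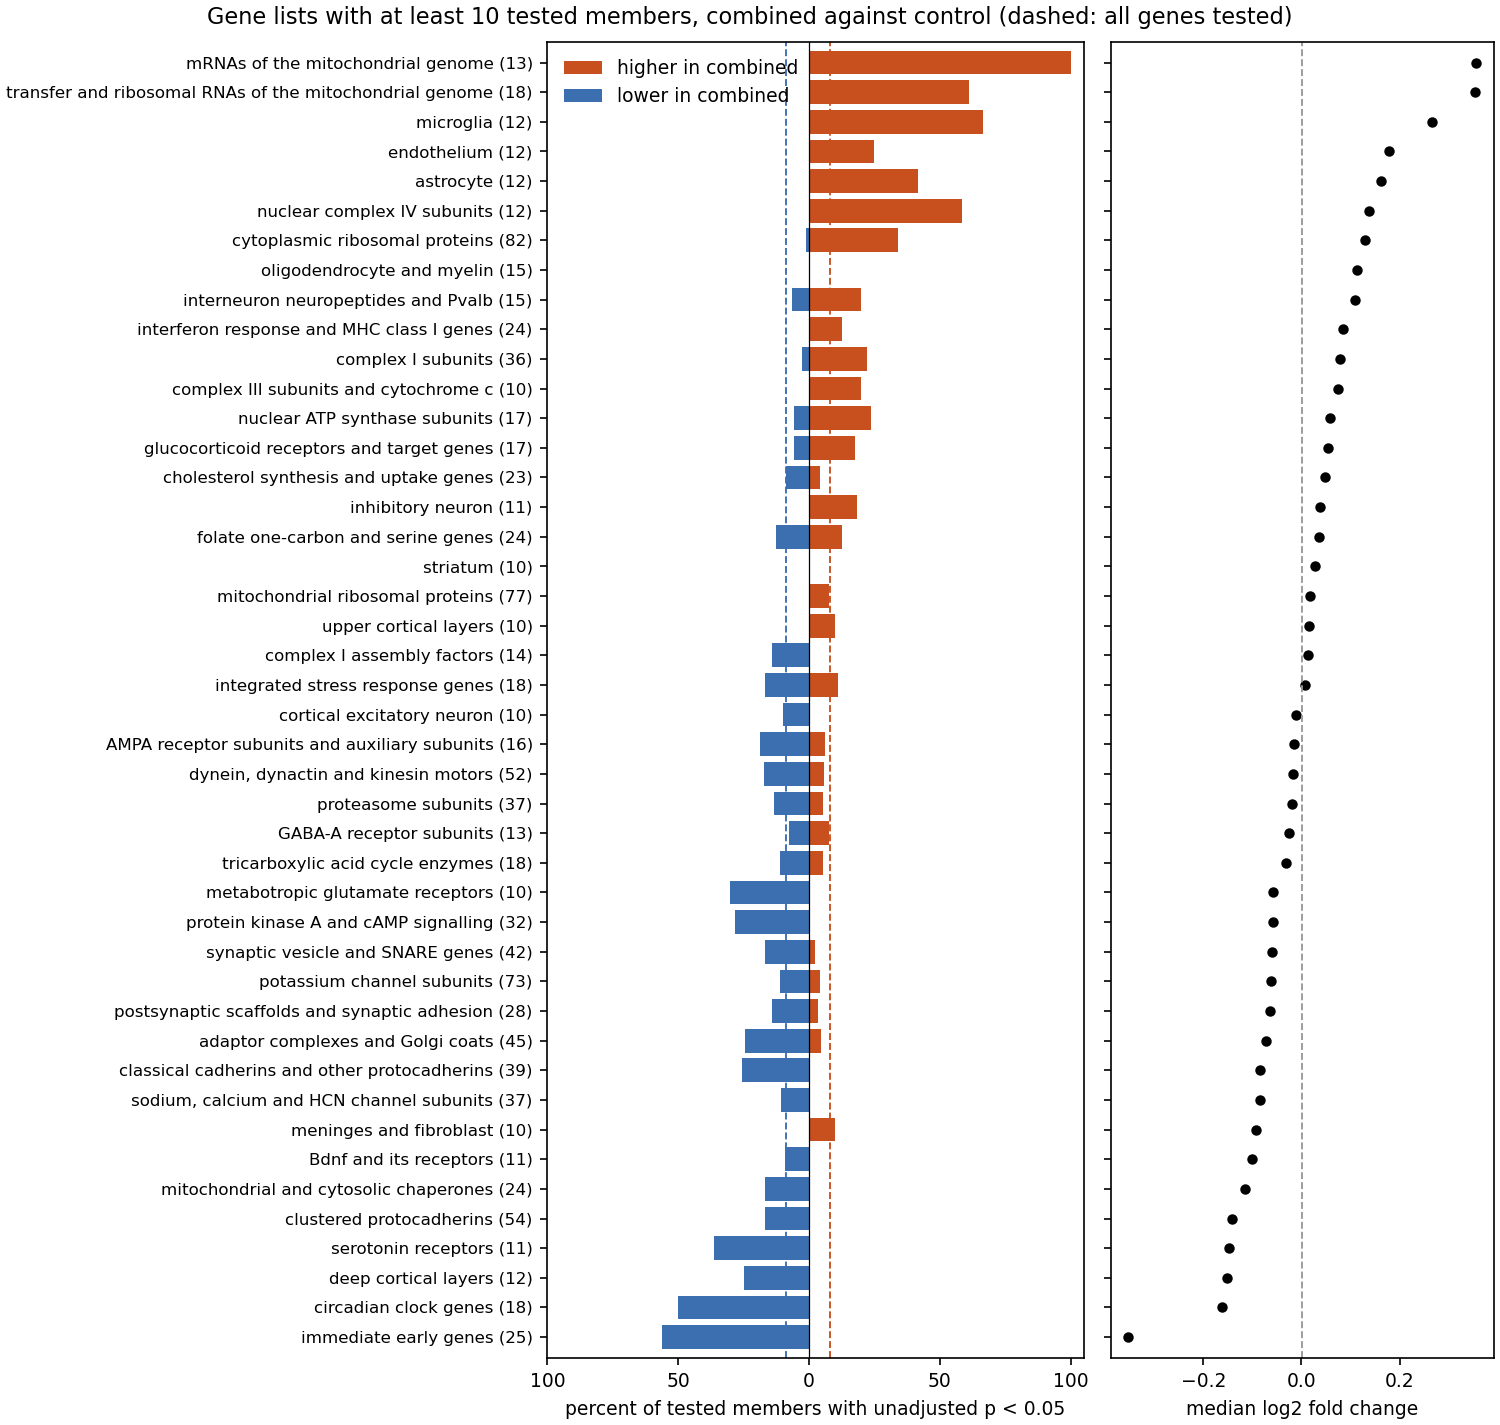
Left, percent of the tested members of each list (number in brackets) past the unadjusted threshold of 0.05, to the right where higher and to the left where lower in combined mice; dashed lines mark the 8.08% and 8.73% of all genes tested. Right, median log2 fold change of each list, from -0.35 for immediate early genes to 0.36 for mitochondrial messenger RNAs.

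Direction went with expression level across the whole table. In the lowest quintile of genes by mean, with means of 10.0 to 48.9 normalized counts, 10.1% were higher and 1.30% lower at the unadjusted threshold, and the median log2 fold change was 0.13. In the highest quintile, above a mean of 1084, 4.94% were higher and 20.6% lower, and the median was -0.06. DESeq2 gave 0.14 and -0.06 for the same quintiles. The score of the lowest quintile was above 0 in 5 of 6 combined mice and below 0 in 5 of 6 controls, and mice 12_4 (-0.0483) and 2_2 (0.0278) were the exceptions. Length went along with it, as the shortest quintile of genes had a median of 0.06 and the longest -0.04, and across 14958 genes the log2 fold change correlated with exon length at a Spearman's rho of -0.21 (genes are not independent replicates). The mitochondrial messenger RNAs, with a median log2 fold change of 0.36, all belong to the highest quintile. The part of depth, level and length in the results was not tested.

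Transcripts annotated as long noncoding, antisense or of unconfirmed coding status were mostly above 0. Of 1174 tested, 171 (14.6%) were higher and 9 (0.767%) lower, the median was 0.15, and 0 passed the limma threshold, while DESeq2 called 9 higher, 0.767% beside 0.741% of all genes tested. They are low in count, with a median mean of 24.5 against 339 for protein-coding genes. Between means of 14.7 and 51.9, 81 of 586 noncoding genes were higher and 4 lower (median 0.16), and 165 of 1701 protein-coding genes were higher and 25 lower (median 0.10). The abundant *AC161763.1*, a lincRNA, had means of 15089 normalized counts in controls and 26312 in combined mice (0.78 ± 0.17, limma adjusted p = 0.0519), and *Rian*, a noncoding RNA of an imprinted cluster, 7231 and 8374 (0.21).

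**Figure D4:**
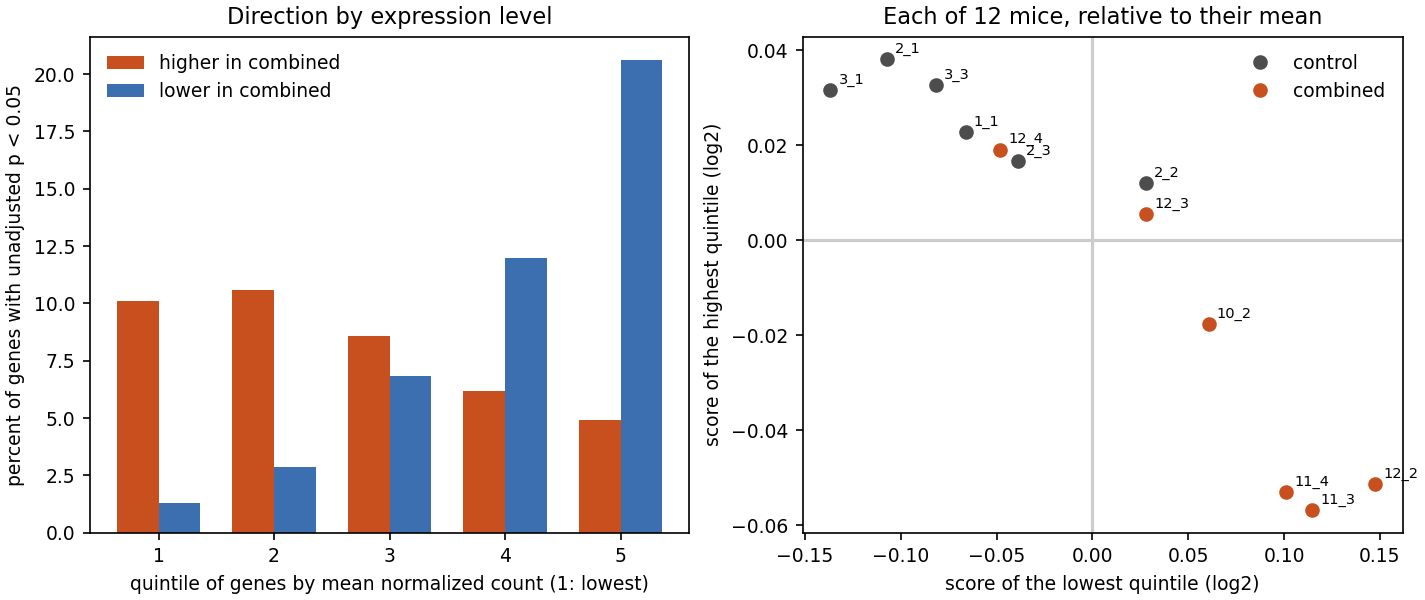
Left, percent of genes that were higher or lower in combined mice (unadjusted p under 0.05), by quintile of mean normalized count. Right, score (mean log2(value + 1) minus the 12-mouse mean) of the lowest and the highest quintile in each mouse; combined mouse 12_4 lies among the controls.

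Levels of marker genes of other cells are given beside these results, and no marker of the following 4 lists passed the adjusted limma threshold. DESeq2 called 1 of 12 microglial markers higher, beside 0.741% of all genes tested. Of 12 microglial markers, 8 were higher and none lower (median 0.27). Their sum was 4508 to 5195 normalized counts in controls and 4710 to 6945 in combined mice, *Csf1r* was the most abundant, and *C1qa* had 0.33 ± 0.09 and *P2ry12* 0.28. All 5 blood genes were higher (median 0.78). Their sum, mostly *Hbb-bs*, was 278 to 448 in controls and 275 to 1090 in combined mice, where 11_3 (1090) and 12_2 (1062) stood far above the rest. Astrocyte markers had 5 of 12 higher (median 0.16). The astrocyte sum, led by *Slc1a2*, was 70585 to 82679 in controls and 69683 to 97147 in combined mice. Endothelial markers had 3 of 12 higher (median 0.18, or 0.118 without 12_2), with sums led by *Slc2a1* of 5286 to 6227 and 5355 to 8324. In mice 12_3 and 12_4 the astrocyte and endothelial scores were below 0 (-0.0973 and -0.190 for astrocytes, -0.137 and -0.211 for endothelium), and in 12_2 they were the highest of all 12 (0.322 and 0.463). Mouse 12_2 also had the highest share of mitochondrial reads, 6.62%, and 12_4 the lowest of the combined group, 4.57%. No marker of these 4 lists was at 0 in any of the 12 mice, and their part in the mitochondrial values was not tested.

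Myelin genes of oligodendrocytes varied strongly between mice within both groups. Their sum, led by *Mbp*, was 15880 to 42794 normalized counts in controls and 13003 (12_4) to 58168 (12_2) in combined mice, and 0 of 15 were higher or lower at the unadjusted threshold. Of the choroid plexus and ependyma list, *Ttr* had 0 to 3.08 normalized counts in controls and 0.97 to 62.0 in combined mice (means of 1.2 and 25.4, 0 in controls 1_1 and 3_3). The scores of this list were highest in 11_3 and 11_4, and 4 of its 9 markers are not listed. Striatal genes were highest in 11_4 (score 1.11, with 3 of its markers at 0 in some mice; sums of 2998 to 3872 in controls, 2756 to 5280 in combined mice, led by *Pde10a*), and genes of meninges in control 2_2 (score 1.05; sums of 779 to 1920 in controls, 740.3 to 1063 in combined mice, led by *Col1a2*). Oligodendrocyte precursors (median 0.07), mural cells (0.11), olfactory bulb (-0.04), excitatory neurons (-0.01, or 0.02 after upper-quartile rescaling), inhibitory neurons (0.04) and upper layers (0.02, or -0.01 after the length correction) held 0, 3, 1, 1, 2 and 1 members past the unadjusted threshold. With 1 mouse left out, the first 3 of these medians ranged from -0.0396 to 0.1578, from 0.0507 to 0.1785 and from -0.2468 to 0.1606. All 12 markers of deep cortical layers were negative (median -0.15, or -0.0747 without 12_4 and -0.0998 without control 3_3), with 3 lower, such as *Fezf2* (-0.25 ± 0.09), and their scores were lowest in 12_2 (-0.241), 12_3 (-0.332) and 12_4 (-0.376) and positive in the other 3 combined mice. The part of these cells in the results was not tested.

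**Figure D5:**
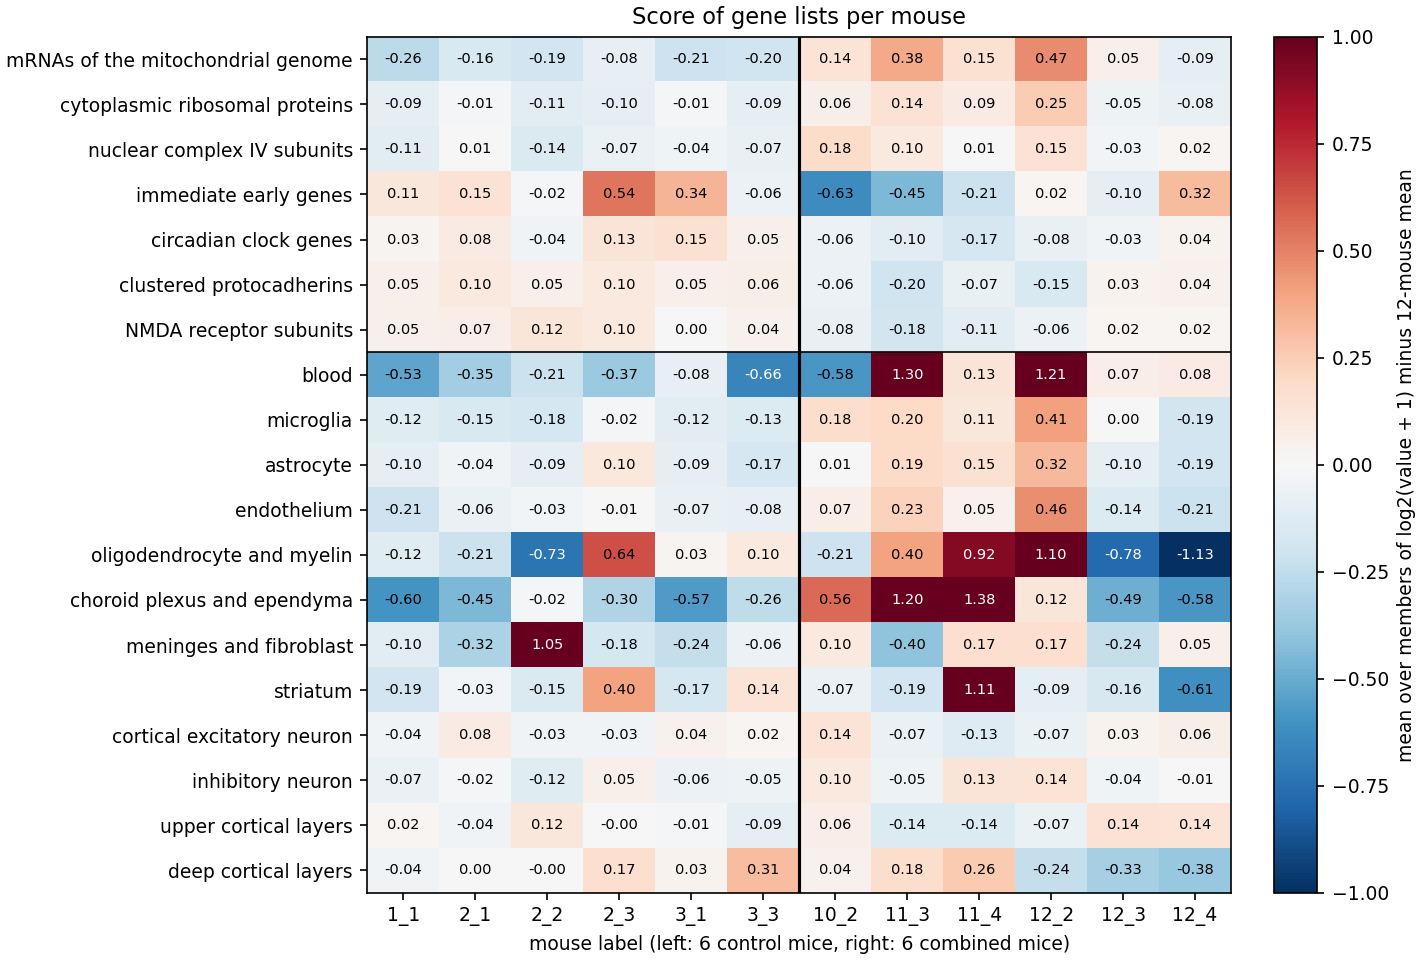
Score of 19 lists in each of the 12 mice, as the mean over members of log2(value + 1) minus the 12-mouse mean (red above 0, blue below). The combined mice 11_3 and 12_2 carry the highest blood scores, 1.30 and 1.21, and 12_4 lies within the control range in the mitochondrial (-0.0898) and immediate early gene (0.320) scores.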

How the data were processed

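The medial prefrontal cortex of 24 mice (4 groups of 6) was analysed by poly(A) RNA-seq. The deposited signal values are normalized counts, for which the authors scaled the gene counts of each mouse by its size factor. Per the labels, TopHat2 2.1.0, Bowtie2 2.2.6 and DESeq2 1.18.1 were used. The library kit that the methods name does not mark strand. The counter and the filter on genes are not given in the sources used here. The labels name build mm9 and the methods GRCm38. The gene positions match GENCODE vM21 on GRCm38 for 14285 of 15438 IDs found there.

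Genes with a mean of at least 10 were tested on log2(value + 1), which understates changes of low genes, with limma 3.58.1 (R 4.3.3, trended prior, Benjamini-Hochberg adjustment, threshold 0.05) in 1 model of all 24 mice. Single values were compared by exact permutation. The test was also run on simulated data, and the outcome is not reported here. Whole reads were recovered from the steps between values (at least 99.974% of values whole within 0.0051) for DESeq2 1.42.0 and edgeR 4.0.16. In control 2_1 the worth of 1 read (0.993) is so near 1 that recovery is less certain, so DESeq2 was also run without that mouse, a choice made after seeing the data.

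Members and gene lists were chosen with earlier results of these data known. Genes were named if they passed the threshold, were among the 5 higher and 5 lower genes of smallest DESeq2 p that limma did not call, appear in the study's account of its RNA-seq, had the smallest p of a list, or are drug targets. A few genes that this rule names are not reported here. Further list members and noncoding genes given as examples were chosen after their values were seen. Promoters came from RefSeq GRCm38.p6, using the first start listed per gene. Alternatives were other scalings, filters, pseudocounts, tools, groups in the model, a random block for the first label number, and each mouse left out.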

Additional observations from a re-analysis of the deposited data

Results flagged for a closer look

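A mouse was singled out where it lay far from the other 5 of its group, by Dixon's criterion. Chance alone does this for about 1 in 20 groups, and 12 of the 236 groups looked at (5.08%) met it.

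Among genes, *Ap3b2* had 2500.25 normalized counts in control 1_1, while the next control had 2283.48. *Trim30a* had 9.93 in control 2_1 (next 15.58) and 38.39 in combined mouse 11_3 (next 23.23). *Pcsk1* had 1180.21 in control 3_1 (next 1291.49).

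Among list scores, combined mouse 10_2 stood above its group for complex I subunits (0.1458, next 0.0439) and nuclear ATP synthase subunits (0.1608, next 0.0468). Control 2_3 was high for targets of the glucocorticoid receptor (0.1546, next -0.05). Control 2_2 was high for mural cells (0.4779, next 0.0085), meninges and fibroblasts (1.0473, next -0.0577) and the olfactory bulb (0.9953, next 0.0875). Combined mouse 11_4 was high for the striatum (1.1103, next -0.0683). Control 2_1 had the deepest library of its group, with 14446451 recovered reads (next 13700587). No gene passed the test of the interaction between the treatments.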

How the results depend on the processing

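Against 15 DEGs in the model of all mice, limma found 196 with the control and combined mice alone, 30 at a minimum mean of 50, 18 after quantile normalization, 23 after upper-quartile rescaling, 59 with a random block for the first label number, 62 after the length correction and 126 at an adjusted p-value under 0.1. DESeq2 found 217, 709 with those 2 groups alone, and 63 without control 2_1 (chosen after seeing the data), and edgeR 17. At most 3 of the 15 were missing from any of these sets. With 1 mouse left out, the count ranged from 5 to 154 over 24 fits. It was 154 without 12_4, 123 without 9_3, 43 without 12_3 and 23 without 8_4, and it was 9 without 1_1, 5_3 or 6_1, 7 without 12_2, 6 without 11_3, and 5 without 2_1, 3_1 or 10_2. *Mthfd1l*, *Olfr729*, *mt-Te*, *Adrb1* and *F3* passed in all 24, whereas *Zranb2*, *Otud1* and *Zfp282* were each lost in 5, *Tcim* in 7, *Ppp1r15b* and *Arrdc2* in 13, *Sat1* in 14, *Cox8a* in 15, and *Ppp2r5d* and *Rusc2* in 16. *Gria2* (-0.0058 in the model of all mice) changed sign after quantile normalization (0.0584), upper-quartile rescaling (0.0262) and the length correction (0.0320), and ranged from -0.0352 to 0.0280 with 1 mouse left out. List medians moved by more than the spread between mice in 10 of 432 other settings and in 0 of 648 fits with 1 mouse left out. They changed by a factor above 1.5, or in sign, for 42 of 54 lists under some other setting. With some mouse left out, the same held for 32 of 54. Of 63 named genes, 17 moved that far under some other setting, such as *Dctn1* (-0.109), *Prkacb* (-0.0822), *Uso1* (-0.0434) and *mt-Nd5* (0.146) after quantile normalization and *Npy* (0.255) after the length correction. With 1 mouse left out, 12 of 54 medians changed sign, namely the AMPA receptor, metabotropic receptor, complex I assembly, monoamine enzyme and integrated stress response lists and, among the markers, myelin, oligodendrocyte precursor, meninges, striatum, olfactory, excitatory neuron and upper layer genes. The median over mitochondrial messenger RNAs was 0.142 after quantile normalization, and the length correction gave 0.170 for the other mitochondrial RNAs, 0.0576 for ribosomal proteins and -0.423 for immediate early genes. The causes were not tested. No paired analysis was possible because no replicate number is shared between groups. DESeq2 gave no adjusted p-value for *Tcim* and *Trim30a*, which had few counts.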
